A study of Sus scrofa with 8 samples.

Results

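The genes described here are the HNRNP and SRSF genes of the pig, which encode heterogeneous nuclear ribonucleoproteins (hnRNPs) and serine/arginine-rich (SR) splicing factors. They were taken by symbol from a table of read counts for 25880 pig genes, and 29 were found, 19 HNRNP and 10 SRSF. Of these, 24 carried their symbol in a table of gene names, and 5 (HNRNPA3, HNRNPAB, HNRNPC, HNRNPF and HNRNPH2) were named by position, where their span matched that of a RefSeq gene of assembly Sscrofa11.1. No identifier was matched to HNRNPA0 or SRSF4, which are not analysed here. All 29 passed the filter on low counts. The family was selected on the values of knockout against wild-type piglets, in which HNRNPA2B1 stood out, so that the differences between the genotypes are given below as a description and support nothing by themselves.

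The counts came from mRNA of the olfactory epithelium of 8 newborn piglets. In 4 of them (piglets 6, 18, 20 and 21) the chloride channel gene CFTR had been knocked out, and 4 (piglets 5, 9, 12 and 23) were wild type. The tissue was dissected and frozen, no treatment is named, and the labels used here name no allele, sex or litter. EIF1AY and KDM5D, which are Y-linked, had reads in 2 wild-type and 0 knockout libraries, so sex was not balanced between the genotypes as far as these reads show. A fit with them as a covariate is given below for HNRNPC, HNRNPH1, SRSF2 and SRSF5. The genotype term of this fit compares the knockout piglets only with the wild-type piglets that lack such reads, so it rests on fewer animals. The study asked what the loss of CFTR, the gene defective in cystic fibrosis, does to the tissue that senses odours. Values below follow the piglet order just given, as TMM-scaled CPM (counts relative to the size of the library).

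Pre-mRNA is coated by hnRNPs and SR proteins as it is made. SR proteins bind mostly to exons through an RNA recognition motif and recruit the splicing machinery through a domain of arginine and serine repeats, whereas many hnRNPs bind introns or silencers and favour skipping of an exon. The balance between both kinds shapes which exons are kept, and many of these genes damp their own level by splicing in an exon that marks the transcript for decay. Counts per gene do not separate such decay isoforms from those that are translated, nor the A2 from the B1 transcript of HNRNPA2B1.

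Library totals were 39915150 to 43253395 counts in knockout piglets and 30836904 to 42281883 in wild-type piglets, the lowest being wild-type piglet 9. CFTR was 5.24 to 8.37 CPM in knockout piglets and 34.0 to 56.5 CPM in wild-type piglets, which did not overlap. The dissected tissue held transcripts of mature olfactory neurons, with the channel gene CNGA2 at 458 ± 45.1 CPM in knockout piglets and 329 ± 79.0 CPM in wild-type piglets (SD, n = 4 each). Knockout piglet 18 stood apart in bone and connective tissue genes, whose 10 matched markers summed to 45944 CPM there, 1767 to 2670 CPM in the other knockout piglets and 2110 to 5829 CPM in wild-type piglets. Its 12 blood and immune markers summed to 520.3 CPM, against 104 to 183 CPM in the other knockout piglets and 72.8 to 153 CPM in wild-type piglets. In the fit of edgeR across 17175 genes, 1 gene (CFTR) passed an adjusted p of 0.05, which is 0.00582% of the genes tested.

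Both families were abundant. On the TPM scale, which divides the counts by the exon length of each gene and allows genes to be compared, the 19 HNRNP genes summed to 4327 ± 533 TPM in knockout piglets and 4862 ± 151 TPM in wild-type piglets, and the 10 SRSF genes to 1414.5 ± 161 and 1663 ± 99.9 TPM in the same order (SD, n = 4 each). By the mean of all 8 piglets HNRNPA2B1 came first, at 501 ± 51.3 TPM in knockout piglets and 648 ± 24.1 TPM in wild-type piglets. Among all genes of the table it ranked 158 by TPM and 42 by CPM, which is not divided by exon length. HNRNPA3 followed at 552 ± 91.9 and 597 ± 52.2 TPM, a level that did not differ from that of HNRNPA2B1 beyond the spread, then HNRNPH1 at 404 ± 54.4 and 477 ± 42.1 TPM and HNRNPF at 338 ± 39.8 and 381 ± 42.8 TPM, knockout first in each. The most abundant SR gene per length was SRSF2 at 280 ± 50.1 TPM in knockout piglets and 329 ± 45.5 TPM in wild-type piglets. SRSF11 had 272 ± 38.4 and 289 ± 22.5 TPM, SRSF3 had 235 ± 31.6 and 274 ± 30.8 TPM and SRSF6 had 181 ± 11.5 and 235.5 ± 13.2 TPM, so that neighbours in this order lay within each other's spread, apart from SRSF6 in knockout piglets. Apart from HNRNPL, described next, the lowest were SRSF12, a tissue-restricted SR protein, at 9.93 ± 0.772 TPM in knockout piglets and 13.1 ± 2.52 TPM in wild-type piglets, and HNRNPLL at 20.8 ± 3.70 and 19.5 ± 0.794 TPM. TPM values carry no TMM factor, and knockout piglet 18 had the lowest HNRNP sum on this scale, 3612 TPM, against 4242 to 4803 TPM in the other knockout piglets. The part of its bone and blood transcripts in this was not tested.

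**Figure D1:**
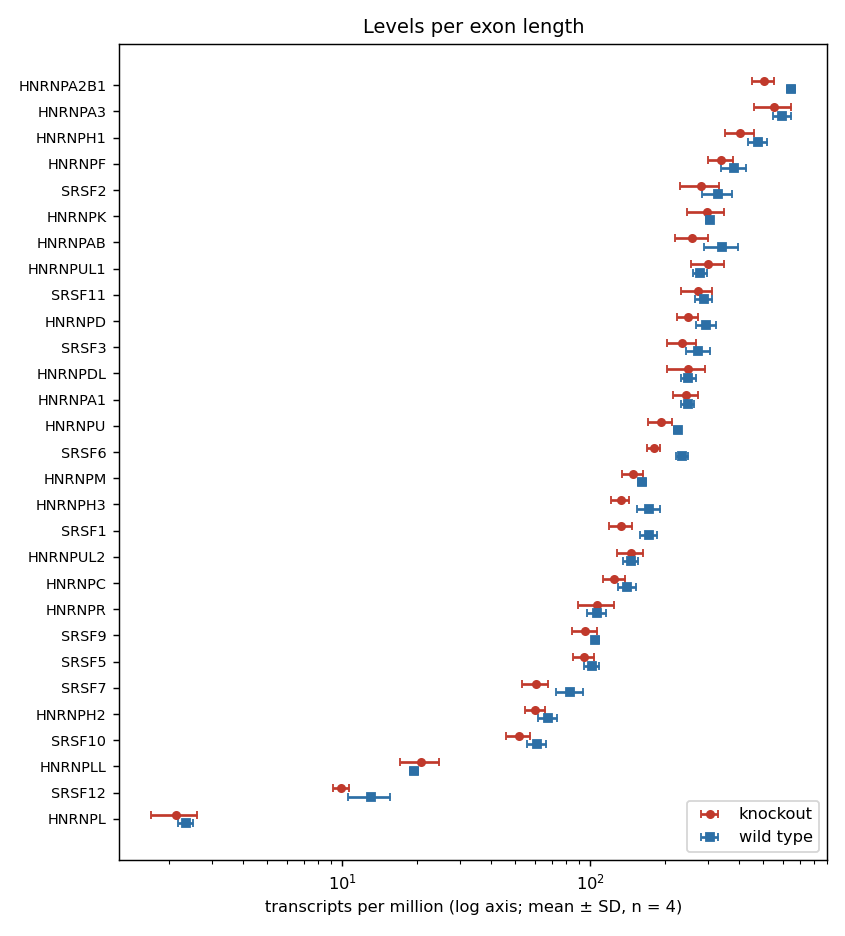
Levels of the 29 genes per exon length, in TPM on a log axis, as the mean and SD over 4 knockout (circles) and 4 wild-type piglets (squares), ordered by the mean of all 8. HNRNPA2B1 and HNRNPA3 are at the top and HNRNPL is lowest, far below the other genes.

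Some levels depend on how gene models overlap. HNRNPL, which binds CA-rich RNA, was lowest of all at 2.15 ± 0.447 TPM in knockout piglets and 2.34 ± 0.156 TPM in wild-type piglets, and 87.3% of its exon bases also belong to an unnamed gene model on the same strand, which had 0 to 3 counts per library. Its level is therefore not a measure of the transcript. HNRNPA1 shares 65.7% of its exon bases with genes on the opposite strand (NFE2 and CBX5), SRSF5 43.5% (SLC10A1) and HNRNPAB 42.6% (PHYKPL). SRSF2 shares 19.7%, mostly with MFSD11, and the remaining members share at most 8.11%. The sources used here do not say whether reads were counted by strand, so reads from these stretches cannot be assigned with certainty.

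The members varied little between animals. Their coefficient of variation across 4 piglets had a median of 6.31% in the knockout group and 7.58% in the wild-type group, against 13.5% and 16.1% over all genes tested. Genes at low counts are among all genes tested, and genes of matched level were not compared. The part of abundance in this difference was therefore not tested. The tightest was HNRNPC, which binds uridine tracts, at 1.27% in knockout piglets, and the loosest was SRSF12 at 20.4% in wild-type piglets. Wild-type piglet 9 was the highest of the 8 libraries for 6 of the 10 SRSF genes and piglet 23 for 3, while knockout piglet 6 was lowest for 4. Among HNRNP genes the extremes were spread over more animals, knockout piglet 6 being highest for 5 of 19 and wild-type piglet 23 for another 5.

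Between the genotypes, most members had lower values in knockout piglets, by small amounts. The log2 fold change, knockout over wild type, was negative for 22 of 29 genes and positive for 7, against 48.4% and 51.6% of all genes tested. All 10 SRSF genes were negative, from -0.40 to -0.04 with a median of -0.19, and 12 of 19 HNRNP genes, from -0.35 to 0.16 with a median of -0.08. The median of all genes was 0.01. In 5 members (HNRNPA2B1, HNRNPU, SRSF1, SRSF6 and SRSF7) all 4 knockout values lay below all 4 wild-type values, which 3.35% of all genes did, and in none did they lie above, which 2.45% did. No member passed the edgeR test over all genes, with Benjamini-Hochberg adjusted p from 0.334 to 0.954. DESeq2 called 2 members lower, HNRNPA2B1 and SRSF6, against 0.806% of the genes it tested called lower and 1.31% called in either direction, and limma with sample quality weights called 0 (0.064% of all genes). At an unadjusted edgeR p under 0.05 there were 6 members lower and 0 higher, against 5.8% and 5.4% of all genes. Since this contrast brought the family forward, nothing is read from these counts. In a tissue sample, fewer cells of a type and less RNA per cell cannot be told apart.

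**Figure D2:**
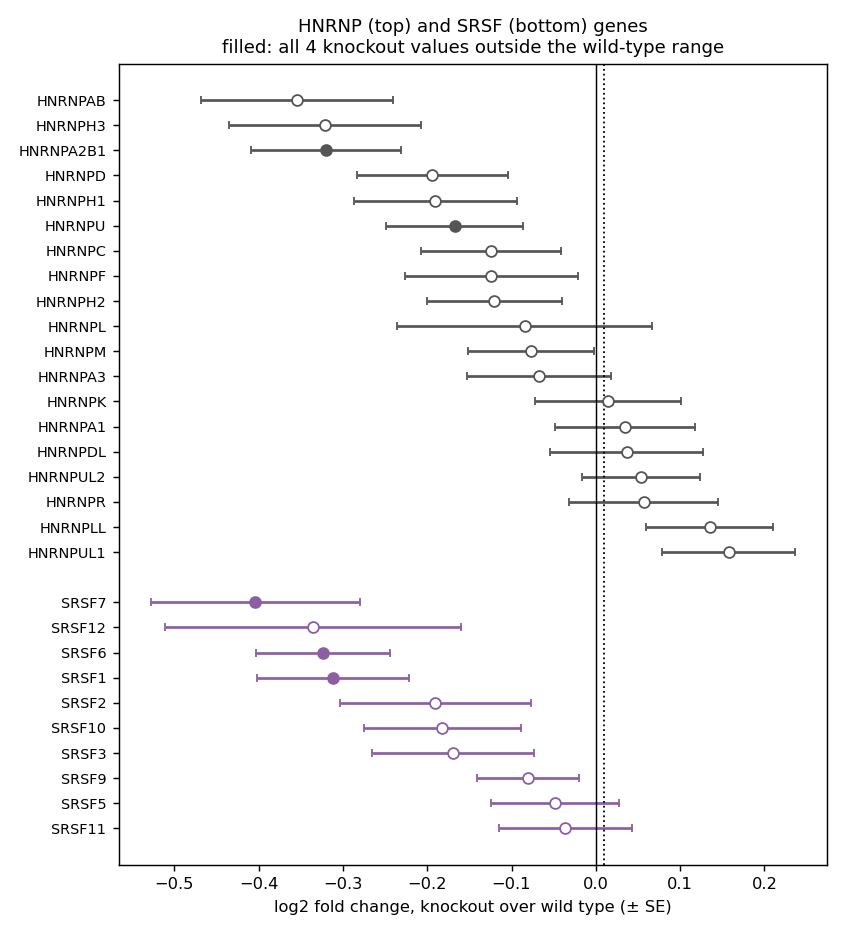
Log2 fold change of each gene, knockout over wild type, with its SE from edgeR (4 piglets per group); filled points are the 5 genes in which no knockout value reached the wild-type range, and the dotted line is the median of all genes, 0.01. All SRSF genes lie left of 0 and HNRNP genes lie on both sides.

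HNRNPA2B1, an A/B-type hnRNP that packages pre-mRNA and carries RNA along neuronal processes, had the lowest DESeq2 adjusted p of the members. CFTR lies on chromosome 18, 28627719 to 28819815 on the minus strand. HNRNPA2B1 (ENSSSCG00000036350) lies on the same chromosome, 46203102 to 46216449 on the plus strand. Both are in the coordinates of the deposited table, whose build is not stated. Whether the shared chromosome bears on the HNRNPA2B1 values was not tested. Knockout piglets had 1205, 1270.4, 1255 and 1211 CPM of HNRNPA2B1, against 1501, 1596, 1467 and 1603 CPM in wild-type piglets. The knockout values spanned a narrow range, and the highest of them was well below the lowest wild-type value. Means were 1235 ± 32.4 CPM in knockout piglets and 1542 ± 68.2 CPM in wild-type piglets (SD, n = 4 each), the knockout mean being 80.1% of the other. Its log2 fold change of -0.32 ± 0.09 (SE) had an edgeR adjusted p of 0.355 and a DESeq2 adjusted p of 0.000107. It ranged from -0.36 to -0.30 over 16 other settings, and DESeq2 called the gene in each of 8 fits that left out 1 piglet. These fits reuse the values on which the gene was selected, so they add no support. Of its exon bases 2.95% overlap CBX3, a heterochromatin protein gene on the opposite strand, which had a log2 fold change of 0.05 ± 0.07.

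The levels of the other A/B genes overlapped between the genotypes. HNRNPA1, the best studied splicing repressor of the group, had 511, 506, 463 and 451 CPM in knockout piglets, against 486.5, 491, 440.5 and 468 CPM in wild-type piglets. The groups overlapped throughout, and its log2 fold change was 0.03 ± 0.08. HNRNPA3 had 236 to 274 CPM in knockout piglets and 251 to 295 CPM in wild-type piglets (-0.07 ± 0.09). The ratio of HNRNPA1 to HNRNPA2B1 within a library, which needs no scaling between libraries, was 0.42, 0.40, 0.37 and 0.37 in knockout piglets and 0.32, 0.31, 0.30 and 0.29 in wild-type piglets. All knockout ratios were thus above all wild-type ratios, with the reservation on the overlapping exons of HNRNPA1. HNRNPA2B1 made up 16.8% to 18.1% of all HNRNP counts in knockout piglets and 19.5% to 20.7% in wild-type piglets. The ratio and this share restate the HNRNPA2B1 values on which the family was selected, and add no support to them.

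HNRNPU, a large nuclear protein that binds chromatin and RNA, was the other HNRNP gene whose groups did not overlap. It had 671, 716, 727 and 673 CPM in knockout piglets, against 762, 822, 761 and 784 CPM in wild-type piglets (log2 fold change -0.17 ± 0.08, chromosome 10, 17476877 to 17497130 on the minus strand). Its relatives lay on the other side of 0. HNRNPUL1 had 285, 253, 247 and 261 CPM in knockout piglets and 240, 217, 248 and 233 CPM in wild-type piglets, and its log2 fold change of 0.16 ± 0.08 was the highest of the members, although wild-type piglet 12 lay within the knockout range. HNRNPUL2 had 0.05 ± 0.07. The ratio of HNRNPU to HNRNPUL1 was 2.35, 2.83, 2.94 and 2.58 in knockout piglets and 3.18, 3.78, 3.07 and 3.37 in wild-type piglets, with no overlap. That of HNRNPU to HNRNPUL2 was 4.20 to 4.30 in knockout piglets and 4.57 to 5.604 in wild-type piglets.

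The genes related to HNRNPD, whose product binds AU-rich elements and steers mRNA decay, differed among themselves. HNRNPAB, named by position, had 179, 158, 157 and 170.0 CPM in knockout piglets, against 205, 253, 174 and 216 CPM in wild-type piglets (-0.35 ± 0.11). Knockout piglet 6 was above wild-type piglet 12, so the groups overlapped by 1 value on each side. HNRNPD itself had 181 to 205 CPM in knockout piglets and 193 to 239 CPM in wild-type piglets (-0.19 ± 0.09), and HNRNPDL, which lies beside it on chromosome 8, 573 to 681 and 559 to 643 CPM (0.04 ± 0.09). The ratio of HNRNPAB to HNRNPD was 0.77 to 0.89 in knockout piglets and 0.90 to 1.06 in wild-type piglets, which did not overlap.

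The F/H genes, whose products bind runs of guanines, all had negative log2 fold changes. HNRNPH3, the shortest of these proteins, had 135, 179, 163 and 156 CPM in knockout piglets, against 179, 205, 179 and 227 CPM in wild-type piglets (-0.32 ± 0.11). Knockout piglet 18, at 178.7 CPM, was level with wild-type piglets 5 and 12, and without it the groups did not overlap. HNRNPH1 had 774, 767, 823 and 768 CPM in knockout piglets, against 787, 959.7, 960.0 and 867 CPM in wild-type piglets (-0.19 ± 0.10). Here knockout piglet 20 was above wild-type piglet 5, and with the Y-linked reads as a covariate the value was -0.08. HNRNPF (-0.12 ± 0.10) and the X-linked HNRNPH2 (-0.12 ± 0.08) were closer to 0. The value of HNRNPF was -0.20 without wild-type piglet 12 and -0.07 without wild-type piglet 23. No ratio between F/H genes separated the groups.

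Of the remaining HNRNP genes, HNRNPC (-0.12 ± 0.08), HNRNPM (-0.08 ± 0.07) and HNRNPL (-0.08 ± 0.15) were slightly negative. The value of HNRNPC was -0.07 without wild-type piglet 23 and -0.20 with the Y-linked covariate. HNRNPK, a KH-domain protein that binds cytosine tracts, had 683, 585, 597 and 593 CPM in knockout piglets, against 592, 638, 588 and 614 CPM in wild-type piglets (0.01 ± 0.09). HNRNPR, which takes part in axonal mRNA transport, had 0.06 ± 0.09 and HNRNPLL, a regulator of splicing in lymphocytes, 0.14 ± 0.08 (0.09 without knockout piglet 6).

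**Figure D3:**
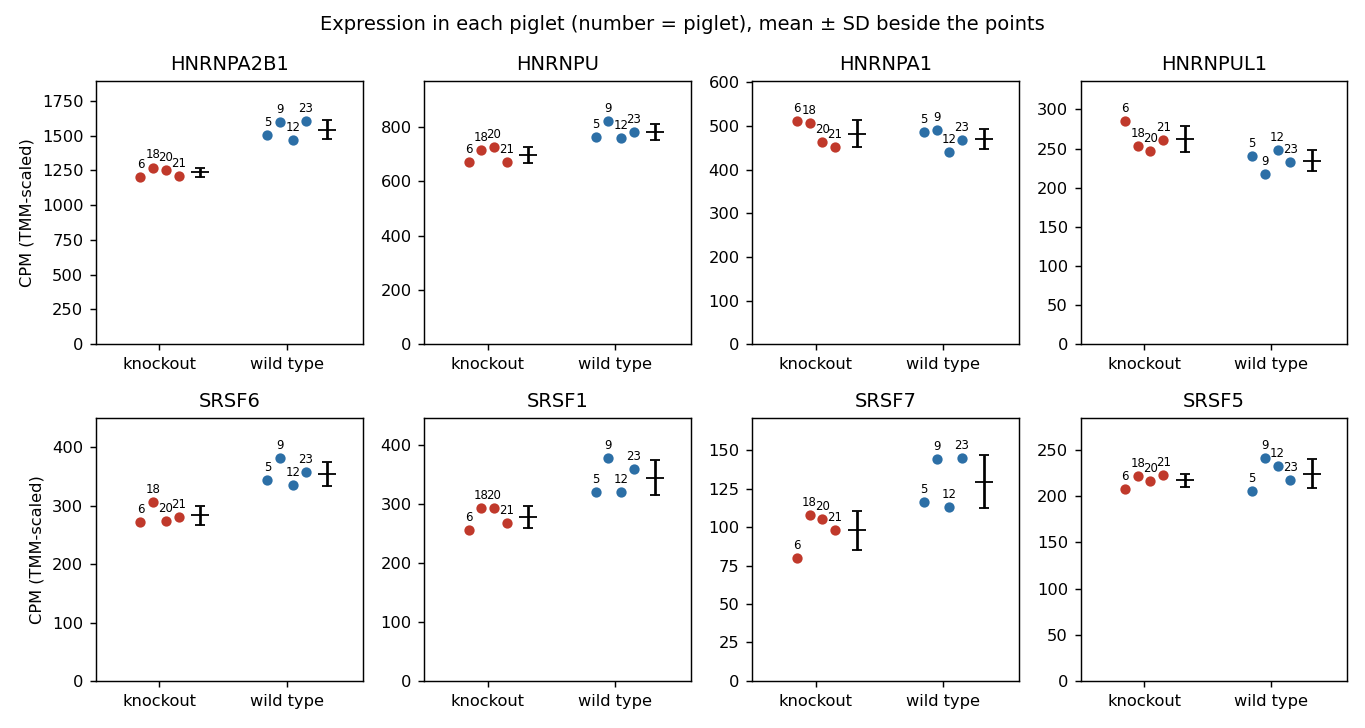
TMM-scaled CPM of 8 genes in each piglet, knockout (left) and wild type (right), with the mean and SD beside the points; each axis starts at 0. HNRNPA2B1, HNRNPU, SRSF6, SRSF1 and SRSF7 show no overlap between the groups, while HNRNPA1, HNRNPUL1 and SRSF5 do.

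Of the SR genes, SRSF6, a regulator of alternative exons, had 272.5, 307, 275 and 281 CPM in knockout piglets, against 345, 382, 335 and 358 CPM in wild-type piglets (chromosome 17, 46118825 to 46143671 on the plus strand). The log2 fold change was -0.32 ± 0.08, the edgeR adjusted p was 0.334, the lowest among the members, and the DESeq2 adjusted p was 0.00626. Leaving out 1 piglet ended the DESeq2 call for SRSF6 in 5 of 8 cases (knockout piglet 6, 20 or 21, wild-type piglet 9 or 23). Its paralogue SRSF5 had 208, 222, 216 and 223 CPM in knockout piglets, against 206, 242, 232 and 218 CPM in wild-type piglets, which overlapped (-0.05 ± 0.08, and 0.03 with the Y-linked covariate). The ratio of SRSF5 to SRSF6 was 0.76, 0.72, 0.79 and 0.79 in knockout piglets and 0.60, 0.63, 0.69 and 0.61 in wild-type piglets, with no overlap.

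SRSF1, the prototype SR protein, which selects splice sites and has roles in export and translation, had 256, 293, 294 and 269 CPM in knockout piglets, against 320.3, 379, 321 and 360.2 CPM in wild-type piglets (-0.31 ± 0.09; chromosome 12, 34275271 to 34282162 on the minus strand). All knockout values were lower, and wild-type piglets 9 and 23 were the highest. SRSF9, its closest relative, had 80.8 to 86.8 CPM in knockout piglets and 86.0 to 92.6 CPM in wild-type piglets (-0.08 ± 0.06). SRSF7, which has a zinc knuckle beside its RNA recognition motif, had 80.2, 108, 105 and 98.3 CPM in knockout piglets, against 116, 144, 113 and 145 CPM in wild-type piglets (chromosome 3, 101603705 to 101611290 on the plus strand). Its log2 fold change of -0.40 ± 0.12 was the lowest of the 29, the knockout mean being 75.6% of the wild-type one. The groups were separate, knockout piglet 18 and wild-type piglet 12 being nearest to each other. SRSF3, the smallest SR protein and the paralogue of SRSF7, had 204 to 220.1 CPM in knockout piglets and 213 to 271 CPM in wild-type piglets (-0.17 ± 0.10, and -0.10 without wild-type piglet 9).

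The other SR genes overlapped between the genotypes. SRSF2, a nuclear speckle protein, had 390.0, 322, 346 and 379 CPM in knockout piglets, against 387, 492, 390.15 and 370 CPM in wild-type piglets (-0.19 ± 0.11), wild-type piglet 9 being far above the rest. Its log2 fold change was -0.09 without that piglet and -0.08 with the Y-linked covariate, which are not independent settings. SRSF10, an SR-like protein that represses splicing when dephosphorylated, had 166 to 194 CPM in knockout piglets and 180 to 216 CPM in wild-type piglets (-0.18 ± 0.09). SRSF12 had 7.34 to 10.1 CPM in knockout piglets and 8.73 to 13.2 CPM in wild-type piglets (-0.34 ± 0.18, or -0.51 with piglets 18 and 5 left out), and SRSF11, 126 to 148 and 131 to 152 CPM (-0.04 ± 0.08).

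**Figure D4:**
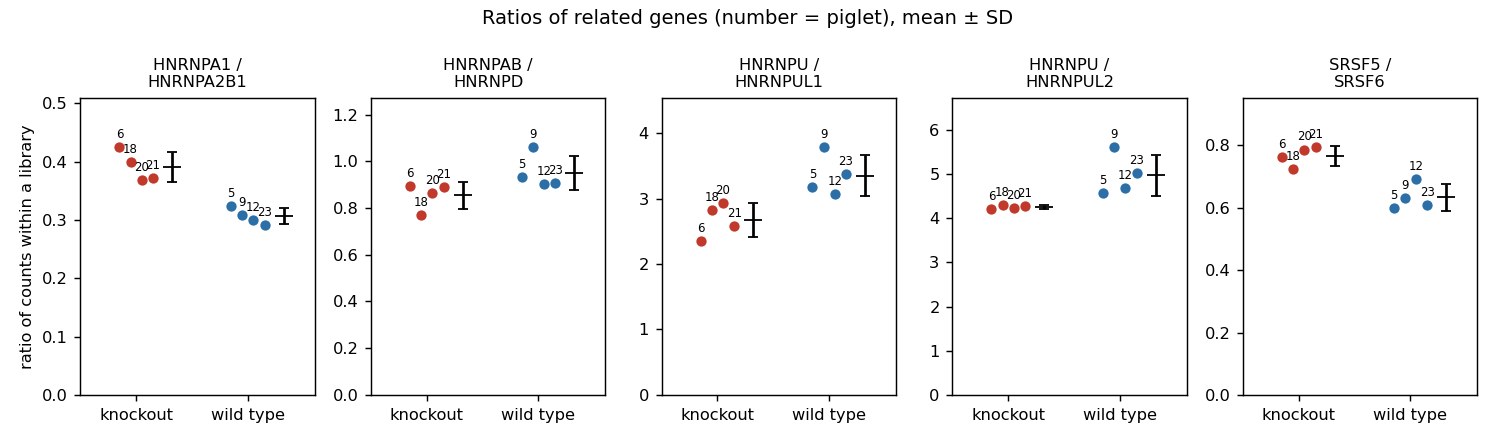
Ratio of CPM between related genes in each piglet, knockout (left) and wild type (right), with mean and SD, for the 5 of 20 pairs within subfamilies whose groups did not overlap; pairs that share a gene are not independent. Ratios of HNRNPA1 to HNRNPA2B1 and of SRSF5 to SRSF6 are higher in knockout piglets and those with HNRNPU or HNRNPAB on top are lower. All pairs shown except HNRNPAB to HNRNPD hold a gene whose own groups did not overlap. No share over pairs of other genes was computed, so nothing is read from the count.

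Summed over each family, every knockout piglet was below every wild-type piglet. HNRNP genes summed to 7190.1, 7038, 7086 and 6912 CPM in knockout piglets, against 7497, 7977, 7508 and 7730.5 CPM in wild-type piglets. SRSF genes summed to 1805, 1882, 1885 and 1856 CPM in knockout piglets, against 2054, 2346, 2018 and 2166 CPM in wild-type piglets. The knockout sums were close together in both families, and wild-type piglet 9, the shallowest library, was highest. The ratio of SRSF to HNRNP sums was 0.251 to 0.269 in knockout piglets and 0.269 to 0.294 in wild-type piglets, with knockout piglet 21 and wild-type piglet 12 almost level at 0.2685 and 0.2688. The sums are dominated by abundant genes, HNRNPA2B1 above all, and restate values on which the family was selected. No share over comparable sums of other genes was computed, so nothing is read from the lack of overlap.

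Among sums of the cell type and handling lists, only those of immediate early and heat shock genes and of mature neuron genes did not overlap. The sums for dividing cells, immature neurons, sustentacular cells, bone, blood, glia, ciliated cells and muscle overlapped between the genotypes. The 14 immediate early and heat shock genes, which respond to handling and stress, summed to 3379 to 3694 CPM in knockout piglets and 4179 to 5920 CPM in wild-type piglets, with wild-type piglets 9 and 23 highest, and 13 of 14 had a negative log2 fold change (median -0.45). HSPA8, a constitutive heat shock chaperone that leads this list by p, was 926 ± 151 CPM in knockout piglets and 1824 ± 430 CPM in wild-type piglets (SD, n = 4 each). This gene alone makes up a large part of the sum. The 15 genes of dividing cells summed to 479 to 550 CPM in knockout piglets and 514 to 727 CPM in wild-type piglets, which overlapped (14 negative, median -0.31). Their sum was highest in wild-type piglet 5, whose HNRNP sum was the lowest of the wild-type piglets. Wild-type piglet 12 had the lowest wild-type sum of dividing cell genes (514 CPM) and also the lowest wild-type SRSF sum (2018 CPM). The 10 matched genes of mature olfactory neurons summed to 5395 to 6328 CPM in knockout piglets and 3373 to 5327 CPM in wild-type piglets (0 negative, median 0.36). The part of these lists in the lower HNRNP and SRSF levels was not tested. The median log2 fold change was -0.10 for HNRNP and -0.20 for SRSF genes when knockout piglet 18, highest in bone markers, and wild-type piglet 5, lowest in neuron markers, were left out.

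**Figure D5:**
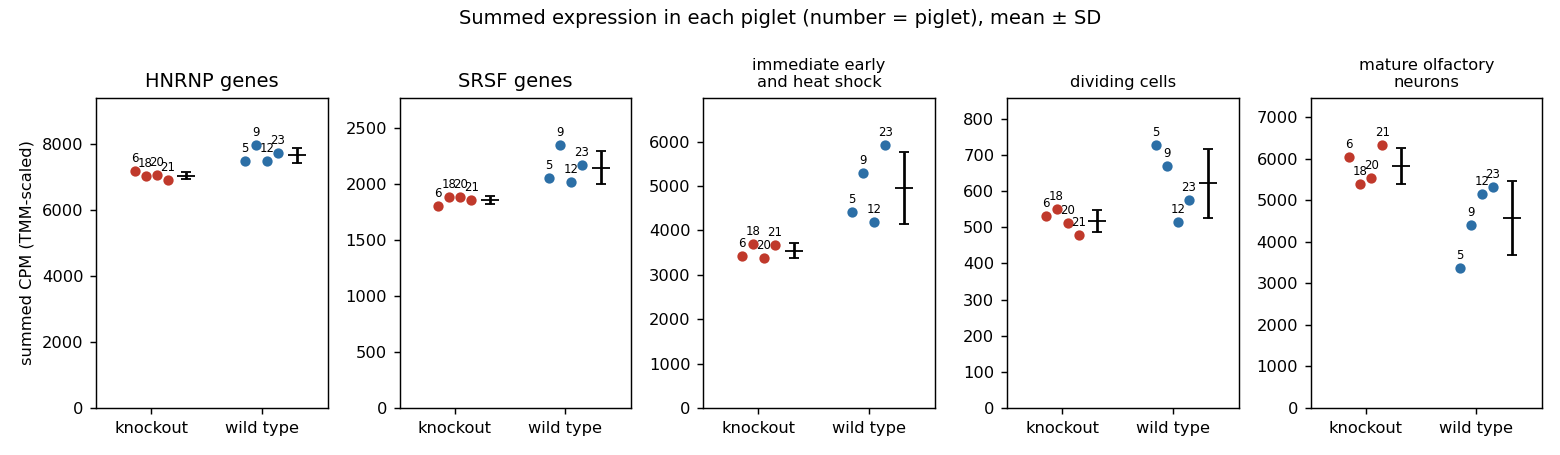
Summed TMM-scaled CPM in each piglet, knockout (left) and wild type (right), with mean and SD, for the 19 HNRNP genes, the 10 SRSF genes and 3 lists of other genes; each axis starts at 0. The HNRNP, SRSF and heat shock sums are lower in all knockout piglets, and the sum of mature neuron genes is higher in all of them.

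The rest of the splicing machinery was read from lists of core and regulatory factors. Over 139 other genes tested, 87 had a negative log2 fold change (48.4% of all genes did), the median was -0.05 and 0 passed the edgeR test. At an unadjusted edgeR p under 0.05, 14 were lower and 6 higher, against 5.8% and 5.4% of all genes. DESeq2 called 3, against 1.31% of the genes it tested. Nothing is read from these counts. Among them, SNRPF, a ring protein of the spliceosomal small nuclear ribonucleoproteins, had 33.2, 31.6, 28.7 and 32.3 CPM in knockout piglets, against 40.05, 49.0, 37.1 and 44.4 CPM in wild-type piglets (-0.44 ± 0.10, DESeq2 adjusted p = 0.0225). SFPQ, a paraspeckle protein, had 447, 507, 481 and 449.7 CPM in knockout piglets, against 564, 651, 582 and 572 CPM in wild-type piglets (-0.33 ± 0.09, DESeq2 adjusted p = 0.0119). PTBP3, a polypyrimidine tract binding repressor, was on the higher side, with 197, 184, 198.5 and 188 CPM in knockout piglets, against 164, 139, 168 and 150.3 CPM in wild-type piglets (0.31 ± 0.08, DESeq2 adjusted p = 0.0341). In each of these 3 genes the groups did not overlap, as in 3.35% of all genes on the lower side and 2.45% on the higher side. They are named because DESeq2 called them, which makes a lack of overlap likely, so it adds no support.

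The lists differed in their medians. Proteins of the Sm ring and of the U-type particles were negative in 10 of 12 genes (median -0.24), with SNRPA, which binds a stem-loop of its particle's RNA, at -0.42 ± 0.11 and SNRPD1, another ring protein, at -0.36 ± 0.12. SR-related and speckle proteins were negative in 13 of 17 (median -0.19), led by TRA2B, a splicing activator with arginine and serine repeats, at 163 ± 7.58 CPM in knockout piglets and 215 ± 29.7 CPM in wild-type piglets (-0.39 ± 0.11). RSRC2 had -0.28 ± 0.10 and SREK1 -0.26 ± 0.10. Branch point and acceptor site factors were negative in 11 of 12 genes (median -0.10), with U2AF2, which binds the polypyrimidine tract, at -0.18 ± 0.08, U2AF1 at -0.22 ± 0.11 and PHF5A at -0.24 ± 0.12. None of these passed edgeR over all genes.

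Other lists lay near 0. The tri-snRNP list was negative in 6 of 11 genes (median -0.01), and its largest subunits were on the positive side, the helicase SNRNP200 at 0.29 ± 0.10 and the core scaffold PRPF8 at 0.22 ± 0.10, with the recruitment factor SART1 at 0.15 ± 0.07. The list of late spliceosome proteins was negative in 6 of 14 (median 0.01), with BCAS2, named by position, at -0.21 ± 0.10, DHX8 at 0.24 ± 0.12 and CDC5L at 0.17 ± 0.09. SR protein kinases and their importer were negative in 6 of 9 (median -0.09). SRPK1, which phosphorylates SR proteins in the cytoplasm, had 91.8, 97.6, 102 and 84.3 CPM in knockout piglets, against 112, 110, 111 and 112 CPM in wild-type piglets (-0.24 ± 0.07), whereas its relative SRPK2 had 0.25 ± 0.11. SRPK3, named by position, had -0.99 ± 0.36 with 0.843 to 2.12 CPM in knockout piglets and 1.91 to 4.74 CPM in wild-type piglets, which overlapped. The hnRNP-type proteins without the HNRNP symbol were negative in 19 of 26 (median -0.07), with ILF2, a double-stranded RNA complex subunit, at -0.23 ± 0.09. Neuronal and epithelial splicing regulators were negative in 8 of 23 (median 0.08), with the epithelial regulator ESRP2 at -0.43 ± 0.19, MBNL1 at 0.18 ± 0.10 and the neuronal RBFOX1 at 0.50 ± 0.33. Exon junction and decay factors, which act on the decay isoforms named above, were negative in 8 of 15 (median -0.005), with MAGOHB, named by position, at -0.38 ± 0.15, SMG6 at 0.27 ± 0.11 and RBM8A at -0.17 ± 0.08.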

How the data were processed

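Raw counts of reads per gene and piglet were deposited by the authors, together with exon lengths that served for TPM; per the file headers the columns are those featureCounts writes. The submitters' processing notes list Subread 1.5.0-p3, DESeq2, HTSeq, featureCounts and STAR 2.4.0 without saying what each did, and no genome build or strand setting. Left out were 5988 identifiers that are not pig genes (94 to 727 counts per library). Of the rest, 14857 were named through a gene name table, 1642 by position (at least 50% of both spans overlapping in RefSeq) and 9381 stayed without a symbol.

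The main test was edgeR 4.0.16 (R 4.3.3), quasi-likelihood, with TMM, its default filter, genotype as the factor and Benjamini-Hochberg adjustment over 17175 genes at 0.05. The SE is the log2 fold change over the root of the F statistic; CPM are TMM-scaled. DESeq2 1.42.0 and limma 3.58.1 with voom were alternatives; DESeq2 was first run on unfiltered genes, and the filter was put before it after that result was seen. The procedure was tested on simulated data. A library is 1 piglet, and p-values reflect animal-to-animal spread. Members, lists and tests were chosen with earlier results of these data known. Named genes were CFTR, all members, up to 3 genes per other splicing list with the smallest p at a mean of at least 1 CPM, DESeq2 calls in those lists, and genes starting within 1000 bases of a member on the other strand. CBX3, HSPA8, CNGA2, overlapping genes, the subfamilies behind the ratios and the genes plotted by piglet were chosen after values were seen.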

Additional observations from a re-analysis of the deposited data

Results flagged for a closer look

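In 5 cases 1 of the 4 piglets of a group lay far from the other 3, by Dixon's criterion at the 95% level; 104 groups were examined, and chance flags about 1 in 20. HNRNPH1 was 823.2 CPM in knockout piglet 20, against 767 to 774 CPM in the other knockout piglets. HNRNPK was 682.7 CPM in knockout piglet 6, against 585 to 597 CPM in the others. The ratio of SRSF10 to SRSF12 was 26.26 in knockout piglet 20, against 18.4 to 19.2. SRSF2 was 491.8 CPM in wild-type piglet 9, against 370 to 390.15 CPM in the other wild-type piglets. CFTR was 56.54 CPM in wild-type piglet 5, against 34.0 to 36.6 CPM.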

How the results depend on the processing

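The count of genes called across the table was 1 with edgeR, 219 with DESeq2 and 11 with limma. DESeq2 had first been run without the filter on low counts, which gave 246 genes and the same 2 members (HNRNPA2B1 and SRSF6); the filtered fit was adopted after seeing that count, so that it starts from the genes that edgeR tests (16742 of the 17175 kept an adjusted p). Leaving out 1 piglet at a time gave 0 to 16 genes in edgeR, 16 of them without wild-type piglet 12. In DESeq2 it gave 82, 275, 151 and 77 genes without knockout piglets 6, 18, 20 and 21, and 340, 52, 1069 and 134 without wild-type piglets 5, 9, 12 and 23. Without knockout piglet 18 together with wild-type piglet 5, edgeR called 2 genes, DESeq2 334 and DESeq2 on unfiltered genes 333. Of the members, edgeR and limma called 0 in each fit. DESeq2 called 2 with all libraries, 5 without piglets 18 and 5 (3 on unfiltered genes), and in fits that left out 1 piglet it called 6 (wild-type 12 left out), 4 (wild-type 5), 2 (knockout 18) or 1 (any other). DESeq2 called 3 genes of the other splicing lists. Members whose knockout values were all below the wild-type ones numbered 5, but 5 to 11 with 1 piglet left out (11 without wild-type piglet 12) and 8 without piglets 18 and 5. Groups separate more easily with fewer piglets, and the share over all genes was computed only with all 8 (3.35%). Nothing is therefore read from the larger counts. The DESeq2 fits with piglets left out, those on unfiltered genes and the counts of members without overlap were chosen after seeing the data. The medians of both families stayed negative under the 16 alternatives run for them. Over these, 24 of 29 members kept 1 sign and 5 near 0 did not (HNRNPA1, HNRNPDL, HNRNPK, SRSF5 and SRSF11). With the Y-linked reads as a covariate, HNRNPH1 (-0.08) and SRSF5 (0.03) moved by more than the spread between piglets. That fit sets the knockout piglets against the wild-type piglets without such reads, so these shifts reflect which wild-type piglets remain in the comparison. Why the wild-type piglets differ among themselves was not tested. No paired analysis was possible because the genotypes share no piglet number.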

Other observations

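Genes that start close to a member on the opposite strand were compared with it. HNRNPDL and ENOPH1, an enzyme of methionine salvage, start 2 bases apart. ENOPH1 was 63.8, 66.5, 63.9 and 65.0 CPM in knockout piglets and 62.4, 72.9, 70.6 and 76.2 CPM in wild-type piglets, a log2 fold change of -0.12 ± 0.08 against 0.04 ± 0.09 for HNRNPDL. CBX5, a heterochromatin protein gene whose start overlaps that of HNRNPA1, had 145 to 175 CPM in knockout piglets and 165 to 202 CPM in wild-type piglets, which overlapped (-0.16 ± 0.10). The starts of TTC9C and HNRNPUL2 are 217 bases apart, and TTC9C had -0.17 ± 0.11. GLA beside HNRNPH2 had 0.10 ± 0.12 and MFSD11 beside SRSF2 had 0.14 ± 0.09. An unnamed gene on the plus strand that overlaps the end of HNRNPU on chromosome 10 (17471914 to 17477392) had 24.6, 19.0, 17.9 and 17.3 CPM in knockout piglets and 24.7, 28.6, 31.05 and 29.3 CPM in wild-type piglets, a log2 fold change of -0.53 ± 0.13 with an adjusted p of 0.334 in edgeR and 0.0362 in DESeq2. It was chosen after its values were seen, its groups nearly touched at knockout piglet 6 and wild-type piglet 5, and its reads cannot be told apart from those of HNRNPU where the exons overlap.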
